A study of Mus musculus with 2 samples.

Results

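Slits and netrins are secreted guidance proteins, and Robo, DCC, neogenin and UNC5 proteins are receptors through which growing axons respond to them. The genes described here are the ligand genes Slit1, Slit2, Slit3 and Ntn1 and the receptor genes Robo1, Robo2, Robo3, Dcc, Neo1 and Unc5c, which were chosen by name as the main midline ligands and receptors. These 10 genes were found by symbol among the 43346 Ensembl genes of the gene tables and hold 59 of the rows of the transcript tables. Total RNA longer than 200 nt had been taken from the hindbrain of B6NCrl mouse embryos, with both sexes pooled, at 13.5 days of development, and 10 ng of it had gone into each of 2 libraries. The libraries are numbered as biological replicates 1 and 2, have separate biosample labels and share a donor label, so part of the spread between them may be technical. They form 1 group, and no treatment, genotype or other tissue was set against it.

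Slit proteins are made by midline cells, among others, and repel axons that carry Robo1 or Robo2. Netrin-1 attracts commissural axons towards the ventral midline through Dcc, and repels axons when an Unc5 receptor takes part. Robo3 is a divergent member of its family that commissural axons need in order to cross. In mammals it binds NELL2 rather than Slits, and alternative splicing gives it forms with different intracellular ends. In the hindbrain the same genes guide commissural axons and the precerebellar neurons that migrate from the rhombic lip towards the floor plate.

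The transcript models on which several of the results turn differ at a few splice sites. Sequences are given 5′ to 3′ from the mouse genome build GRCm38, and exons are numbered by their order in the GENCODE M21 model of the gene's leading coding transcript. Robo3 is on the minus strand of chromosome 9. The coding transcript Robo3-202 joins exon 26 to exon 27 across chr9:37416891-37417355, and capitals mark the first 30 bases of exon 27. Robo3-205 reads on into intron 26, which has 405 bases, and the piece shown is chr9:37417195-37417355. Its capitals mark the stop codon that follows 128 bases of intron.
Robo3-202: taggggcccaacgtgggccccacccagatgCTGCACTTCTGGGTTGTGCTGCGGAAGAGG
Robo3-205: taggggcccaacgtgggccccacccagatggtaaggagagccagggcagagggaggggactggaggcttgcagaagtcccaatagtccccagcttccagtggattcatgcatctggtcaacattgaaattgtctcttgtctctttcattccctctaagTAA

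Slit3 is on the plus strand of chromosome 11. Slit3-201, its coding transcript, joins exon 14 to exon 15 across chr11:35612407-35622037, with the first 30 bases of exon 15 in capitals. Slit3-202, the short transcript that took most of the gene's TPM, ends within intron 14. It is shown over chr11:35612407-35612466 with the intron bases in capitals.
Slit3-201: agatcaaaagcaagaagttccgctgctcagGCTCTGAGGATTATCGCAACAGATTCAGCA
Slit3-202: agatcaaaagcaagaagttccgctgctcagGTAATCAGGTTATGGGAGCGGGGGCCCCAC

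Intron 14 of Slit3 and intron 16 of Slit2 each hold a copy of miR-218, a microRNA found in Slit genes. The mature sequences below are from RefSeq (GRCm38.p6), with the seed, bases 2 to 8, in capitals. Both copies give the same 5p sequence, at chr5:48223966-48223986 in Slit2 and at chr11:35616840-35616860 in Slit3, and the 3p sequences have different seeds. The microRNA itself was not measured, because the libraries were made from RNA longer than 200 nt, and both of its gene rows held 0 counts in both libraries.
mmu-miR-218-5p: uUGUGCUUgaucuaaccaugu
mmu-miR-218-1-3p: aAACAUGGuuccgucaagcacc
mmu-miR-218-2-3p: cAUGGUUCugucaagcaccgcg

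The estimated counts summed to 33080194 in replicate 1 and 38756411 in replicate 2, of which 2.31% and 2.54% fell on the synthetic spike-in RNAs. The tissue label was checked on 12 identity genes. Of these, 7 hindbrain genes were at 1 TPM or more in both libraries, led by Gbx2 at 44.9 ± 0.120 TPM and Hoxb2 at 34.9 ± 4.88 TPM (SD, n = 2). The forebrain genes Emx1, Emx2, Lhx8 and Six3 were all under 1 TPM in both. Lists of marker genes for other cells were detected as well. The 8 meningeal and mesenchymal genes summed to 756 and 587 TPM in replicates 1 and 2, the 6 choroid plexus genes to 633 and 1190 TPM, and the 6 endothelial genes to 159 and 167 TPM.

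All 10 guidance genes were detected, which here means at least 1 TPM in both libraries (TPM is a transcript level adjusted for transcript length and library depth). Of all Ensembl genes 35.4% were detected, and of the protein coding ones 62.2%. The median of the 10 mean levels was 27.2 TPM, against 16.1 TPM over all 15342 detected genes. The mean levels spanned from 18.1 TPM for Unc5c to 79.4 TPM for Robo2, so that 53.0% to 85.7% of detected genes lay below them. In order of mean level the genes ran Robo2, Robo3, Slit2, Robo1, Dcc, Slit3, Neo1, Ntn1, Slit1 and Unc5c. Taken across the libraries, the values of Slit2 and Robo1 overlapped, and so did those of each neighbouring pair from Slit3 down to Unc5c. Within each library, Slit2 was above Robo1, Neo1 above Ntn1 and Ntn1 above Slit1. The deposited intervals of Slit2 and Robo1 overlapped in both libraries, as did those of Ntn1 and Slit1. Slit3 and Neo1 changed order between the libraries, and so did Slit1 and Unc5c, so the order of these pairs was not settled. In a bulk sample, fewer cells of a type and less RNA per cell cannot be told apart.

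**Figure D1:**
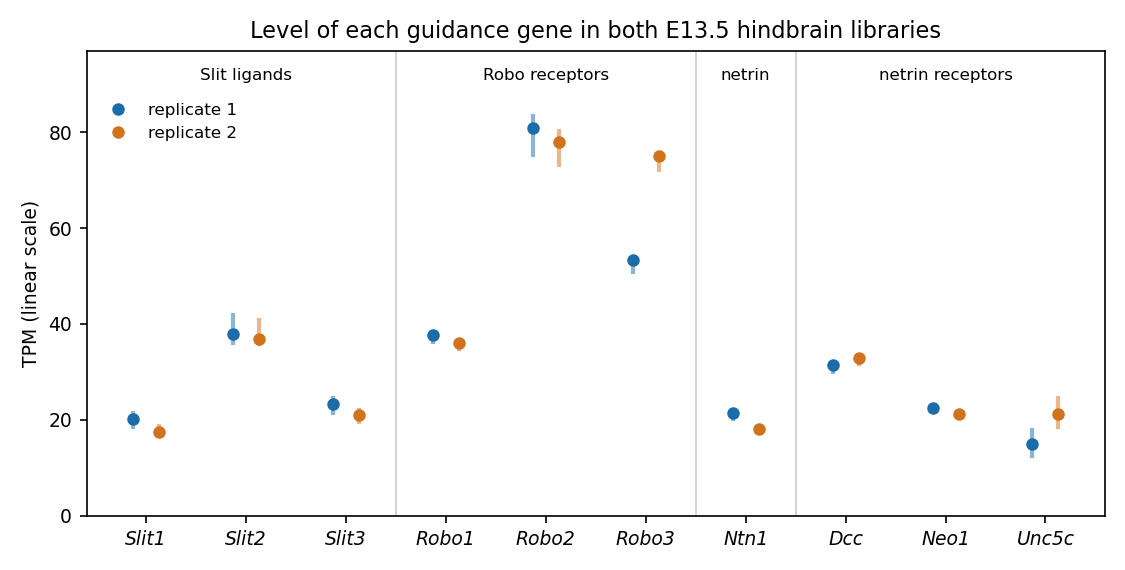
Level of each guidance gene in TPM (vertical axis) in replicates 1 and 2, with the deposited interval of each value as a bar. Robo2 and Robo3 stand above 50 TPM in both libraries, and the values of Robo3 and Unc5c are the furthest apart.

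The Slit ligand genes were at moderate levels. Slit1 (ENSMUSG00000025020.7, chr19:41600257-41743665, minus strand), which is largely confined to the nervous system, had 20.1 TPM in replicate 1 and 17.5 TPM in replicate 2, from 1956 and 2156 estimated counts. Its deposited intervals, 18.1 to 21.8 and 16.5 to 19.1 TPM, overlapped. Slit2 (ENSMUSG00000031558.11, chr5:47983138-48307733, plus strand), which encodes a repellent made by the floor plate and by motor neurons, had 37.9 and 37.0 TPM from 2658 and 3338 counts. Slit3 (ENSMUSG00000056427.6, chr11:35121224-35708507, plus strand) had 23.3 and 21.03 TPM from 831 and 917 counts, the fewest counts of the 10 genes. Thus Slit2 had the highest gene level of the Slits in both libraries, and those of Slit1 and Slit3 lay within 4 TPM of each other in each library.

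Within Slit1, the transcripts Slit1-201 and Slit1-203 held 88.3% and 96.9% of the gene's TPM in replicates 1 and 2. Slit1-201, with 37 exons and 4593 coding bases, took 52.7% and 60.0% of the TPM. Slit1-203 took 35.6% and 36.9%, keeps the gene's last intron (intron 36, 799 bases, chr19:41600690-41601488) and has 4374 coding bases. Both Slit1 transcripts are annotated as protein coding, so the gene level was almost wholly coding.

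Most of the TPM of Slit2 and Slit3 was assigned to transcripts that are not annotated as coding. By counts, coding transcripts held 60.8% and 60.5% of Slit2 in replicates 1 and 2. Slit2 has 20 transcript rows. The largest share was that of Slit2-207, a retained intron transcript that follows exons 1 to 6 of the coding model and then has 840 bases of its own, with 31.6% and 35.96% of the TPM. Slit2-202, the leading coding transcript, with 38 exons and 4599 coding bases, took 24.1% and 24.9% of the TPM, yet 47.9% and 45.4% of the gene's counts. Slit2-209, annotated as retained intron and only 388 bases long as deposited, took 21.1% and 13.7% of the TPM on 47.8 and 35.7 counts. TPM divides counts by transcript length, and the TPM shares and count shares of the Slit2 transcripts diverged.

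TPM shares and count shares also diverged in Slit3. Slit3-202, which has 1218 bases and runs over exons 6 to 14 of 36 and then 244 bases of its own, took 79.9% and 79.6% of the TPM and 51.8% and 49.8% of the counts. Slit3-201, with 5228 bases and 4569 of them coding, took 15.9% and 17.3% of the TPM and 47.3% and 49.5% of the counts. The 2 transcripts shared the reads of the gene about evenly in both libraries, while Slit3-202 had 18.6 and 16.7 TPM and Slit3-201 had 3.71 and 3.63 TPM.

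Robo2 and Robo3 had the highest gene levels of the 10, and Robo1 was close to Slit2. Robo2 (ENSMUSG00000052516.13, chr16:73891839-74411825, minus strand) had 80.8 TPM in replicate 1 and 77.9 TPM in replicate 2, from 7889 and 8903 counts. Robo1 (ENSMUSG00000022883.10, chr16:72308306-73046095, plus strand), the other Slit receptor on chromosome 16, had 37.7 and 36.1 TPM from 5809 and 6564 counts. Robo3 (ENSMUSG00000032128.10, chr9:37415669-37433246, minus strand) spans only 17578 bases and had 53.3 and 75.0 TPM from 4452 and 7291 counts. Robo2 was above Robo1 and Robo3 in both libraries, and Robo3 was above Robo1 in both. In replicate 2 the deposited intervals of Robo2 and Robo3 overlapped, at 72.7 to 80.7 and 71.6 to 75.6 TPM. Summed, the Robo genes had 172 and 189 TPM and the Slit genes 81.3 and 75.5 TPM, a log2 ratio of Robo over Slit of 1.08 in replicate 1 and 1.32 in replicate 2 (mean 1.20 ± 0.17, SD, n = 2). Counted on coding transcripts alone, the same log2 ratio was 1.87 ± 0.11 (SD, n = 2).

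Robo1 has a single transcript in the tables, with 29 exons and 4836 coding bases. Robo2 has 9, and its largest share, 28.4% and 29.7% of TPM, was that of Robo2-209. This retained intron transcript consists of exons 1 and 2 of 26 and 3289 further bases that are not exonic in Robo2-202. The coding transcripts Robo2-202 (21.4% and 24.6%) and Robo2-203 (20.5% and 17.5%) followed. Robo2-202 had 2105.5 and 2752.82 counts and Robo2-203 had 2744.68 and 2676.08, so their order by counts differed between the libraries. Robo2-203 has 4524 coding bases against 4131 in Robo2-202, including coding exons of 126 and 273 bases that the other lacks. Its deposited intervals did not overlap, 15.1 to 17.2 TPM in replicate 1 and 12.5 to 14.3 TPM in replicate 2.

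In Robo3, the coding transcript Robo3-202 took 61.9% and 61.5% of the TPM, with 33.0 and 46.1 TPM. The intron-keeping transcripts took 38.1% and 37.9% of the TPM and 29.3% and 28.7% of the counts. Robo3-206, which runs over exons 13 to 28 and keeps introns 14, 20 and 21, had 11.3 and 15.6 TPM. Robo3-203, which runs over exons 22 to 28 and keeps introns 25 and 26, had 5.81 and 9.34 TPM. Robo3-205, the nonsense mediated decay transcript whose stop codon in intron 26 is printed above, had 3.20 and 3.48 TPM from 324 and 416 counts, and it has 4035 coding bases against 4206 in Robo3-202. Together the 2 transcripts that keep intron 26 held 16.9% and 17.1% of the Robo3 TPM. The shares of the 3 largest Robo3 transcripts thus differed by under 2 percentage points between the libraries, while the level of the gene was higher in replicate 2. Robo3-204 had 0 and 6.54 counts. Robo3-201, whose first coding exon differs from that of Robo3-202, had 0 counts in both libraries, with deposited upper bounds of 0.852 and 0.915 TPM. A form of mouse Robo3 that ends in a kept intron is known in commissural neurons, and whether Robo3-205 is that form was not tested.

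**Figure D2:**
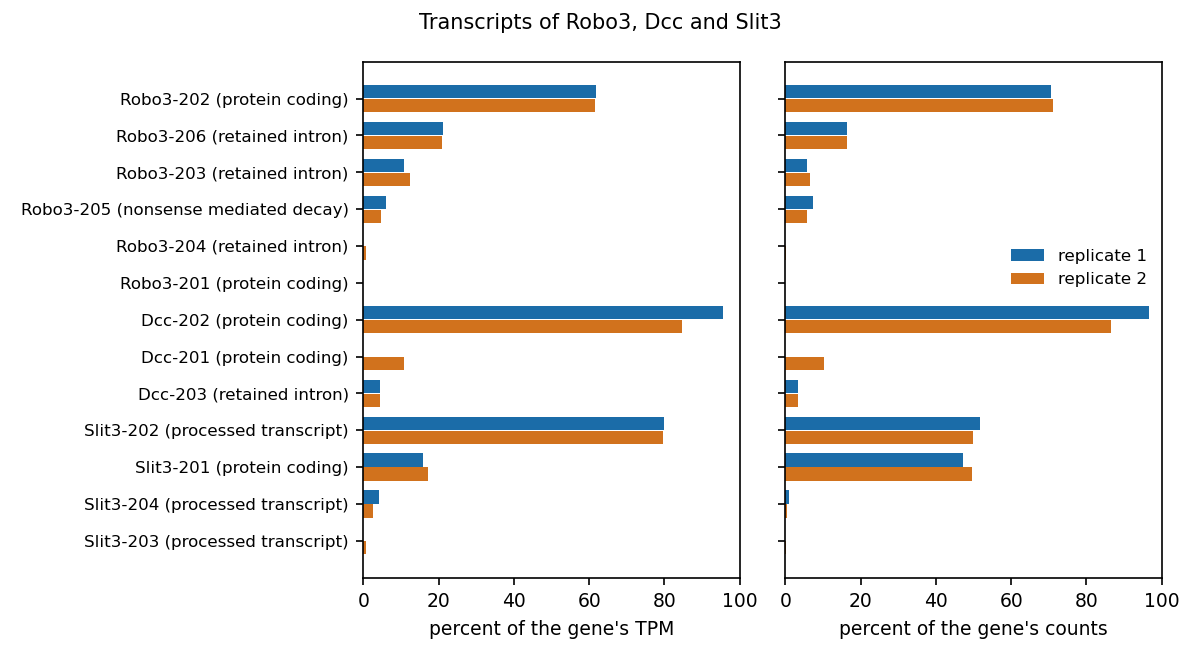
Share of each transcript of Robo3, Dcc and Slit3 in the gene's TPM (left panel) and in its estimated counts (right panel), in percent, for replicates 1 and 2. Slit3-202 holds 79.9% and 79.6% of TPM and 51.8% and 49.8% of counts. Dcc-201 is listed at 0 in replicate 1 and at 10.8% of TPM in replicate 2, while by posterior mean TPM it held 2.78% and 11.3%.

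Ntn1 and the receptor genes Dcc, Neo1 and Unc5c lay between 14.97 and 33.0 TPM in every library. Ntn1 (ENSMUSG00000020902.8, chr11:68209364-68400823, minus strand), which encodes netrin-1, had 21.4 TPM in replicate 1 and 18.1 TPM in replicate 2, from 2296 and 2302 counts. Dcc (ENSMUSG00000060534.11), the attractive netrin receptor, had 31.4 and 33.0 TPM from 3284 and 4040 counts, and its intervals overlapped at 29.6 to 31.7 and 31.3 to 33.3 TPM. Neo1 (ENSMUSG00000032340.7, chr9:58874687-59036441, minus strand), whose product neogenin binds netrins and repulsive guidance molecules, had 22.5 and 21.3 TPM from 3385 and 3781 counts. Unc5c (ENSMUSG00000059921.11, chr3:141465216-141834924, plus strand), which encodes a repulsive netrin receptor, had 14.97 and 21.2 TPM from 1499 and 2366 counts. Dcc was above Neo1 in both libraries on the TPM scale, with a log2 ratio of Dcc over Neo1 of 0.48 and 0.63 (mean 0.56 ± 0.11, SD, n = 2). Without division by length the mean log2 ratio was 0.026 ± 0.098 (SD, n = 2). The deposited model of the main Dcc transcript has 5219 bases and its M21 model 10323, so the Dcc level per length depends on the annotation.

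Among the transcripts of Ntn1, Ntn1-201, with 7 exons and 1812 coding bases, took 90.8% and 91.4% of TPM, and the 944-base Ntn1-203 took 9.23% and 8.65%. Neo1 has 1 transcript, Neo1-201, with 4476 coding bases. Dcc has 3. Dcc-202 and Dcc-201 differ by the splice site at coding exon 17, which has 233 bases in Dcc-202 and 173 in Dcc-201, a difference of 60 bases that leaves the reading frame intact. In the mouse, Nova splicing factors are known to act on this choice. Dcc-202 had 30 and 28.0 TPM. Dcc-201 was listed at 0 TPM and 0 counts in replicate 1 and had 3.56 TPM from 413 counts in replicate 2, or 10.8% of the Dcc level. Its deposited intervals, 1.59e-06 to 2.45 TPM and 1.45 to 5.87 TPM, overlapped. Their level is not stated, and the difference between the libraries in this form was not tested. Dcc-203, a retained intron transcript of exons 1 and 2 with 2848 bases of its own, held 4.56% and 4.50%.

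Unc5c was spread over 7 transcripts. Unc5c-202, with 16 exons and 2793 coding bases, took 45.0% and 38.9% of the TPM and 85.3% and 78.3% of the counts. Unc5c-206, a processed transcript of 357 bases, took 28.7% and 29.8% of the TPM on 22.9 and 39.9 counts. Unc5c-207, a retained intron transcript, took 10.1% and 15.4%. Unc5c-201, whose extra coding exon 8 has 57 bases, took 8.30% and 11.5%. In TPM, Unc5c-202 had 6.73 and 8.26 and Unc5c-207 had 1.52 and 3.28. Both transcripts were higher in replicate 2, with intervals that did not overlap between the libraries.

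Taking only transcripts annotated as protein coding changed the order of the genes. Robo1, Ntn1 and Neo1 have coding transcripts alone in the tables, so their coding share of 100% was fixed by the annotation. The coding share by TPM was 97.7% and 100% in Slit1 and 95.5% in Dcc in both libraries. Coding transcripts held 66.3% and 65.1% of the TPM of Robo2, 61.9% and 61.5% of Robo3, 53.2% and 50.4% of Unc5c, 32.8% and 35.8% of Slit2, and 15.9% and 17.3% of Slit3. Over the 7700 detected protein coding genes that also have a transcript of another type, the median coding share was 85.1% and 85.6%, and 15.2% and 15.04% of these genes were under 50%. Slit2 and Slit3 were under 50% of TPM in both libraries. By counts the coding share was 60.8% and 60.5% in Slit2 and 47.3% and 49.5% in Slit3. It was 91.8% and 87.9% in Unc5c, 72.6% and 71.4% in Robo2 and 70.7% and 71.2% in Robo3. By coding TPM alone Slit3 was the lowest of the 10 genes, at 3.67 ± 0.0566 TPM, with Slit2 at 12.8 ± 0.559 TPM and Slit1 the highest Slit at 18.6 ± 1.56 TPM. Robo2 was the highest at 52.1 ± 1.97 TPM. Its sum included Robo2-201 (8 and 7.19 TPM), Robo2-204 (6.07 and 4.49 TPM) and Robo2-205 (5.59 and 6.23 TPM). Each of these has only 3 exons in M21, although Robo2-201 has 4764 bases as deposited. The rank of Robo2 by coding TPM rests in part on them. Robo3 came next by its mean of 39.6 ± 9.28 TPM (SD, n = 2 for each), but with 33.0 and 46.1 coding TPM it was below Robo1, with 37.7 and 36.1, in replicate 1 and above it in replicate 2. These shares rest on how the authors' counting divided reads between overlapping models.

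**Figure D3:**
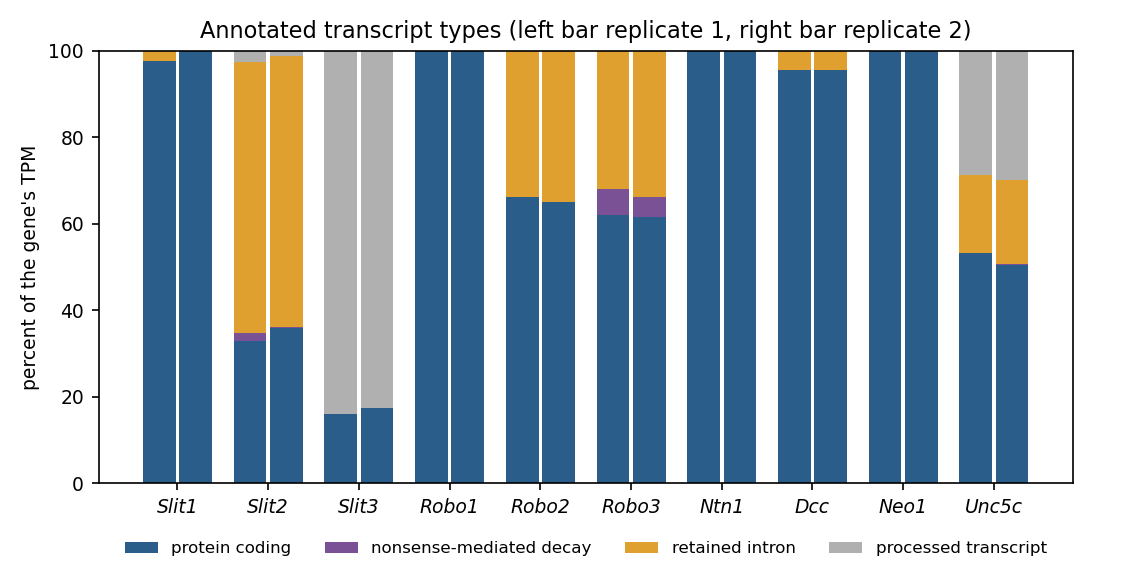
Share of each gene's TPM by annotated transcript type, in percent, with a bar for replicate 1 and for replicate 2. Slit2 is mostly retained intron (62.8% and 62.7%) and Slit3 mostly processed transcript (84.1% and 82.7%).

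**Figure D4:**
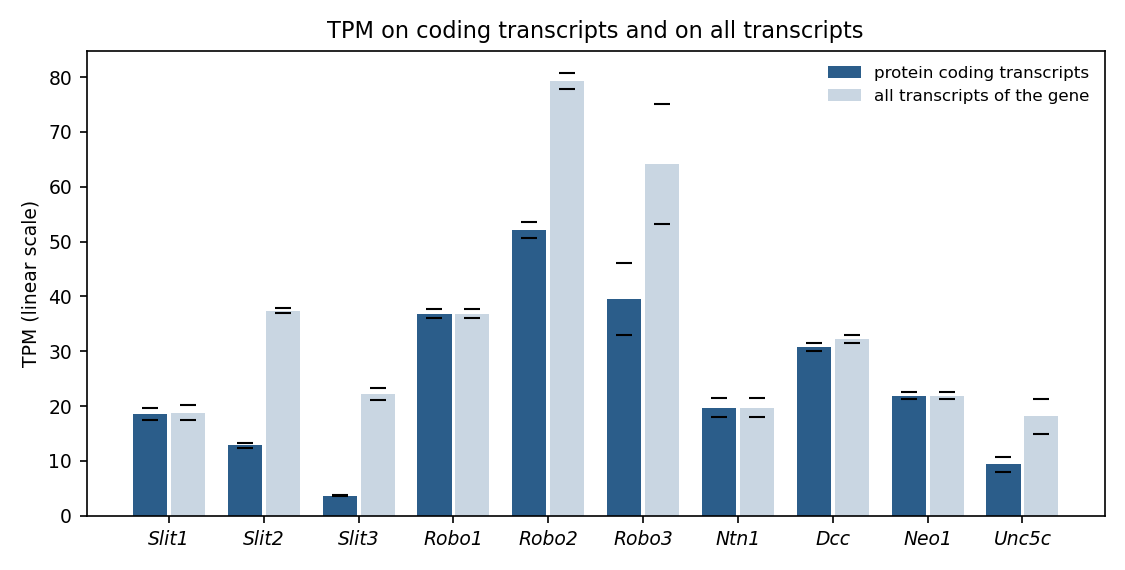
Level in TPM of each gene's coding transcripts beside that of all its transcripts, as means of the 2 libraries with a dash at the value of each library. Slit3 has 3.67 TPM on coding transcripts against 22.2 TPM on all transcripts.

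The libraries were compared gene by gene with an exact binomial test, two-sided, on rounded counts scaled by TMM. Its p-values were adjusted by the Benjamini-Hochberg method over the 19687 genes whose counts in both libraries together reached 10. It sets these 2 libraries against counting error alone and compares no conditions. Of the guidance genes 4 of 10 were called at an adjusted p under 0.05, where 12.6% of all genes tested were called, and 17.7% of the genes with at least 1000 counts in each library. By direction, 1 of 10 was higher in replicate 1, against 5.49% of all genes tested, and 3 of 10 were higher in replicate 2, against 7.07%. Robo3 was lower in replicate 1 than in replicate 2, with a log2 ratio of -0.49 (95% interval -0.55 to -0.44, adjusted p 2.59e-70 in the exact test). Of the 11500 genes with a mean of 5 TPM or more, 2.05% had a ratio at least as far from 0. Unc5c was also lower in replicate 1, at -0.44 (-0.53 to -0.34, adjusted p 2.30e-18 in the exact test), a size that 2.53% of those genes reached. Slit2 was called at -0.11 (-0.18 to -0.03, adjusted p 0.0340 in the exact test), whereas its TPM was marginally higher in replicate 1 and its ratio was 0.033 when spike-in totals set the scale. Ntn1 was higher in replicate 1, at 0.22 (0.13 to 0.30, adjusted p 1.50e-05 in the exact test). Scaling by spike-in totals instead moved the median log2 ratio of all genes by 0.14. It called 8 of the 10 genes, 6 higher in replicate 1 and 2 higher in replicate 2, where 40.4% of all genes were called. Of all calls 93.0% were then higher in replicate 1, against 43.7% with TMM. The calls and directions of Robo3, Unc5c and Ntn1 held under both scalings.

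The deposited intervals of TPM did not overlap for Robo3 (50.5 to 53.9 and 71.6 to 75.6 TPM) and Ntn1 (19.8 to 22.0 and 16.8 to 18.7 TPM), which is 2 of 10 genes, against 9.25% of all detected genes. Those of Unc5c overlapped narrowly, at 11.97 to 18.3 and 18.0 to 24.9 TPM. None of the 10 genes reached a 2-fold difference in TPM, which 1.05% of detected genes did. The other 6 genes had log2 ratios of TMM-scaled counts between -0.08 and 0.08 and adjusted p from 0.113 to 0.550 in the exact test. For Slit1 the log2 ratio was 0.08 on scaled counts and 0.19 on log2(TPM + 1). The median log2 ratio of the 10 genes was 0.04, and that of all detected genes was -0.01.

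**Figure D5:**
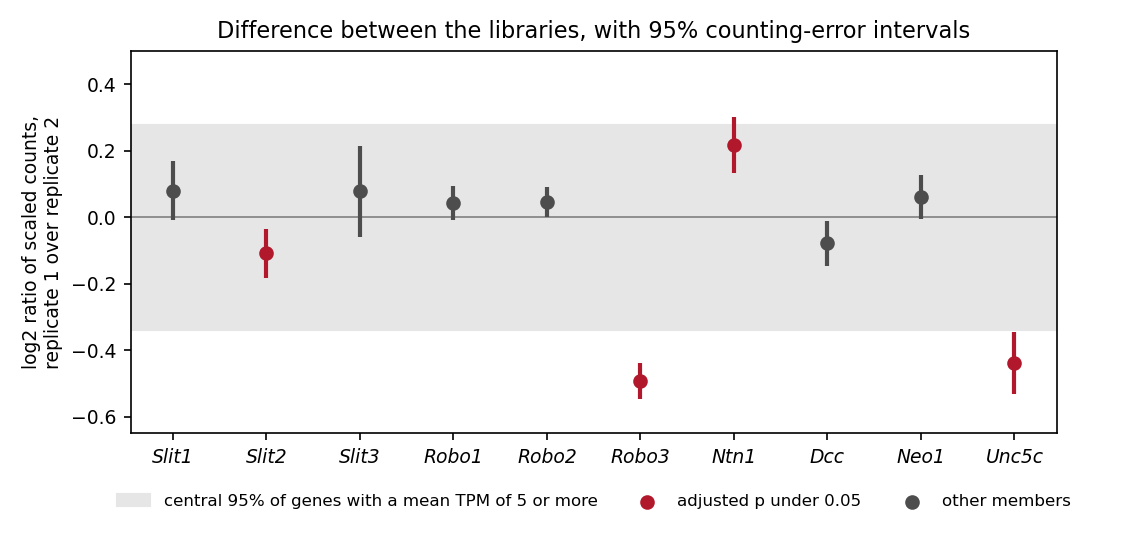
Log2 ratio of scaled counts, replicate 1 over replicate 2, for each gene, with 95% intervals that cover counting error only. Robo3 and Unc5c lie below the grey band that holds the central 95% of genes with a mean of 5 TPM or more, which runs from -0.34 to 0.28.

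Marker genes of several cell types differed between the same 2 libraries. Their counts stand beside 12.6% of all genes tested that were called, 5.49% higher in replicate 1 and 7.07% higher in replicate 2, and 17.7% of genes with at least 1000 counts in each library. Of 11 genes of commissural and precerebellar neurons, which is the setting where Robo3 is best known, all were detected and 5 were called, 4 of them higher in replicate 2. The 11 genes summed to 272 and 299 TPM. Pou4f1 (67.9 ± 0.509 TPM) and Nhlh2 (57.0 ± 8.39 TPM) were the highest, and Atoh1, a factor of rhombic lip progenitors, had 6.35 and 16.4 TPM. Lhx9, with 21.1 and 16.2 TPM, was the 1 called higher in replicate 1. Of 7 motor neuron genes 2 were called, both higher in replicate 2, with sums of 134 and 144 TPM and Prph (54.3 ± 8.33 TPM) and Isl1 (38.7 ± 5.14 TPM) the highest. Isl1 was not called, but had 42.4 and 35.1 TPM with intervals that did not overlap, and so lay the other way. All 6 choroid plexus genes were called higher in replicate 2, led by Ttr (777 ± 346 TPM) and Enpp2 (55.4 ± 8.004 TPM). Of the endothelial genes 1 of 6 was called higher in replicate 2, and Cldn5 (73.9 ± 3.95 TPM) and Esam (34.4 ± 1.24 TPM) were the highest. Of 8 meningeal genes 5 were called, all higher in replicate 1, with Col3a1 (253 ± 34.3 TPM) and Col1a1 (140 ± 50.9 TPM) the highest (SD, n = 2 for each). Of the 12 identity genes 4 were called, 1 higher in replicate 1 and 3 higher in replicate 2, with sums of 146 and 154 TPM. The part of any of these gene groups in the differences of Robo3, Unc5c and Slit2 was not tested.

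Ntn1 is known to be made by the floor plate, and 8 floor plate genes summed to 96.3 and 74.7 TPM in replicates 1 and 2. Spon1, which encodes F-spondin, made up most of the sum with 86.7 and 68.2 TPM (adjusted p 1.56e-49 in the exact test). Foxa1, a forkhead factor of the floor plate, had 0.88 and 0.35 TPM and was called as well (adjusted p 0.00159 in the exact test). The signal gene Shh and the other named transcription factor genes of the list were low. Shh had 1.40 and 1.56 TPM and Foxa2 1.68 and 1.36 TPM. Ferd3l had 1.78 and 0.89 TPM and Nkx2-2 had 2.10 and 1.12 TPM. Nkx2-9 had 0.25 TPM in replicate 1 and was listed at 0 in replicate 2, with a deposited upper bound of 0.103 TPM. In all, 5 of the 8 were detected, and Foxa1, under 1 TPM in both libraries, was not among them. Of the 7 with enough counts to be tested, 2 were called, both higher in replicate 1. Of all genes tested 12.6% were called, and 5.49% were called higher in replicate 1. The part of the floor plate genes in the Ntn1 difference was not tested.

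Other genes overlap the spans of some members. Unc5c overlaps the antisense genes Gm15688, with 89 and 163 counts and 1.86 and 2.88 TPM, and Gm15689, with 15 and 16 counts. Together they held counts equal to 6.94% and 7.57% of those of Unc5c. Gm15688 (chr3:141457976-141465333) lies mostly outside Unc5c, which starts at chr3:141465216, and Gm15689 lies within the Unc5c span. The strand setting is not stated, so reads from the shared stretches cannot be told apart by strand. The overlapping genes of Slit2 (4930518C09Rik, antisense, and Gm20475 among them), of Slit3 and of Ntn1 that are in the tables held counts equal to at most 0.449% of the member's counts. Of the 7 genes that overlap Robo2, the 2 in the tables held 0 counts, and the others were not analysed here, as with 4 of the 7 that overlap Slit2. The M21 genes that overlap Neo1 and Robo1 were not analysed here. No M21 gene overlaps Robo3, Dcc or Slit1.

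The pathway around these genes was read from lists of 56 further genes, of which 55 were matched and Ntn3 was not. Of the 55, 53 were detected, and 11 were called between the libraries, where 12.6% of all genes tested and 17.7% of those with at least 1000 counts in each library were called. Of the 11, 7 were higher in replicate 1 and 4 higher in replicate 2, and the median log2 ratio of the 55 was 0.01. With spike-in totals 41 were called, 40 of them higher in replicate 1, against 40.4% of all genes. Among 12 other ligands and ligand partners, Nell2, the Robo3 ligand, was the highest at 145 ± 8.06 TPM. Rgmb, a ligand of neogenin, had 68.0 ± 3.56 TPM and Flrt3, a Robo1 partner, 29.9 ± 1.65 TPM. Ntn5 was the lowest detected one at 1.98 ± 0.127 TPM, and Ntn4, with 1.72 and 0.98 TPM, was not detected. Nell2 (151 and 140 TPM) was called higher in replicate 1, and Draxin (14 and 17.0 TPM), a secreted Dcc ligand, and Rgmb (65.5 and 70.6 TPM) were called higher in replicate 2.

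The 8 other receptors were all detected and mostly low. Plxna1, a plexin that can also bind a Slit fragment, had 29.7 ± 1.72 TPM, Lrig2, which controls neogenin cleavage, 17.3 ± 0.686 TPM and Unc5a, a repulsive netrin receptor gene, 6.59 ± 0.325 TPM. Unc5b was the lowest at 2.34 ± 0.431 TPM, so Unc5c was the highest Unc5 gene in both libraries, on the TPM of all transcripts. Dscam (5.38 and 4.13 TPM), another netrin receptor, and Plxna1 (31.0 and 28.5 TPM) were called higher in replicate 1, and Unc5b (2.03 and 2.64 TPM) higher in replicate 2.

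Genes for proteins that bind, cut or sort Slits and Robos were detected in 11 of 12 cases. Ndfip1, an adaptor of ubiquitin ligases that acts on Robo1, had 644 ± 3.71 TPM. Usp33, a deubiquitinase that binds Robo1, had 66.4 ± 0.785 TPM and the heparan sulfate proteoglycan gene Sdc3 60.3 ± 3.37 TPM. Ext1, which makes heparan sulfate, was the lowest detected one at 8.87 ± 0.0990 TPM. Prrg4, with 0.30 and 0.27 TPM, was not detected. Sdc3 (62.7 and 57.9 TPM), Ndst1 (12.9 and 11.5 TPM) and Bace1 (45.5 and 41.9 TPM) were called, all higher in replicate 1.

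Both lists of intracellular effectors were detected in full. Of 10 Slit-Robo effectors, Cap1, an actin regulator, had 64.4 ± 3.86 TPM, and the Robo-binding GTPase-activating protein genes Srgap1 and Srgap3 had 32.8 ± 1.17 and 32.0 ± 2.77 TPM. Abl2, a kinase gene, was the lowest at 5.07 ± 0.537 TPM and was the only one of the 10 called, with 5.45 and 4.69 TPM. Of 13 netrin effectors, the GTPase genes Cdc42 and Rac1 had 683 ± 0.912 and 237 ± 1.76 TPM and the kinase gene Pak1 99.1 ± 0.445 TPM. Dock1, a Rac activator, was the lowest at 5.98 ± 0.431 TPM. The only one called was Nck2, an adaptor gene of the Nck family, higher in replicate 2 with 30.3 and 34.7 TPM (SD, n = 2 for each mean).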

How the data were processed

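Total RNA-seq of 2 mouse hindbrain libraries was analysed from a gene table and a transcript table for each. The genome was mm10 and the annotation GENCODE M4, per the authors' deposited notes. No aligner, counting program or strand setting is given in the sources used here. The authors deposited estimated counts (expected counts, from reads shared out over transcripts), TPM, FPKM, each transcript's percent of its gene's TPM, and TPM intervals whose level is not stated and which surround the posterior mean rather than TPM. The interval bounds and lengths, deposited values that are never negative, were read as signal.

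Gene names, transcript types and exons came from GENCODE M21 (GRCm38) by identifier without version: 42462 of 43346 genes and 58 of 59 member transcripts matched, 35 of the latter with the same length. Exon structures are those of M21, while the deposited counts, levels, intervals, percents and lengths rest on M4 models. Counts were rounded and scaled by TMM (edgeR 4.0.16, R 4.3.3). An exact binomial test (SciPy 1.17.1) compared the libraries. Its code was checked on simulated counts with counting error alone, a check that does not cover other spread between replicates. A limit of 1 TPM in both libraries defined detection, and means are given with SD over 2 libraries. Intervals cover counting error only. DESeq2 1.42.0 gave alternative size factors. Other alternatives were total counts, spike-in totals, count floors, other TPM limits and pseudocounts, and each library alone.

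The members and lists were chosen with earlier results of these data known. All 10 members and the floor plate genes were named. So were, per pathway list, the 3 highest and the lowest detected gene and every gene called or not detected. Of other marker lists the 2 highest genes were named. Transcripts with at least 10% of a gene's TPM in either library were named, and all of Robo3 and Dcc. Atoh1 and Lhx9 were named after their values were seen. Values of some marker genes are not reported here.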

Additional observations from a re-analysis of the deposited data

How the results depend on the processing

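No paired analysis was possible because the 2 libraries form 1 group. All 10 genes were detected under each of the 8 alternatives tried. Of the calls between libraries, spike-in totals raised the members from 4 to 8 (6 higher in replicate 1, with 3 calls shared) and the pathway genes from 11 to 41 (40 higher in replicate 1). Non-overlapping intervals gave 2 members and a 2-fold limit 0. The Slit2 ratio reversed, to 0.033 with spike-in totals (adjusted p 0.522, exact test), 0.034 with log2(TPM + 1) and 0.035 with log2(TPM + 0.1). That of Slit1 was 0.19 with log2(TPM + 1) and 0.20 with log2(TPM + 0.1), against 0.08. That of Dcc, not called under either scaling, was -0.08 with TMM and 0.063 with spike-in totals. The log2 ratio of Robo over Slit was 1.78 on CPM and 1.87 on coding transcripts, an alternative chosen after seeing the data, and 1.08 to 1.32 with a library left out. That of Dcc over Neo1 was 0.026 on CPM and 0.48 to 0.63 with a library left out. By posterior mean TPM, Slit3-202 held 78.8%, Robo3-202 61.2% and Ntn1-201 89.9% of the gene. By counts, Slit2-207 held 30.1%, Slit3-202 50.8%, Robo2-209 24.5%, Robo3-202 70.9%, Ntn1-201 98.6% and Unc5c-202 81.8%. CPM and count shares are not divided by length. TPM is, and the deposited gene length in replicates 1 and 2 was 3498.2 and 3801.52 bases for Slit2 and 4802.66 and 5157.9 bases for Slit1. For the other settings the cause was not tested. With 2 libraries, no spread between embryos can be told from technical spread.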
